A study of Mus musculus with 32 samples.

Results

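Dazl, Mael, Sycp3, Asz1, Slc25a31, Stk31, Tex101, Tex19.1, Tfap2c and Prdm1 are 10 mouse genes of the germ line, grouped here under the name of germline genes silenced by DNA methylation. They were chosen by symbol from a written list, each matched 1 Ensembl identifier, and they make up 10 of the 31053 genes counted. Their transcripts were followed in E14 mouse embryonic stem cells that leave naive pluripotency. DNA methylation itself was not measured in the files used here, so the name of the group is a label taken from background knowledge. The data bear on it only through RNA, and the members did not move alike: Sycp3 rose in the 2iL course, whereas Tfap2c had its steepest fall on the first day of both courses.

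The culture medium was N2B27 with 1 of 2 supplements. In 2i, CHIR99021 at 3 uM blocks GSK3 and PD0325901 at 1 uM blocks MEK. In 2iL the cytokine LIF is present as well. Single cells were seeded on gelatin, the supplement was replaced by plain N2B27 a day later, and RNA was taken at 0, 24, 36, 48, 60, 72, 84 and 96 h in the 2iL course and at 0, 12, 24, 36, 48, 60, 72 and 84 h in the 2i course. These 16 groups hold 2 libraries each, 32 in all, from this 1 cell line, and every later time is compared with cells that were not moved to plain N2B27, so time in culture goes with withdrawal. The labels do not say how the replicates were obtained, and p-values therefore measure only the spread between these libraries, which may be technical.

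Germline genes are among the best known targets of promoter DNA methylation in mammals. Their CpG-rich promoters gain methylation around implantation, when the enzymes Dnmt3a and Dnmt3b and their catalytically inactive partner Dnmt3l place new marks, and the marks are kept by Dnmt1 and its guide Uhrf1. In embryonic stem cells grown with 2i the genome is poorly methylated, and part of this gene class is also held down by PRC1.6, a Polycomb complex in which Mga with Max, and E2f6, read short promoter motifs. Tfap2c and Prdm1 belong to another layer of germ line biology: they are transcription factors that set up primordial germ cells, and Tfap2c also acts in naive pluripotent cells and in trophoblast.

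Promoters of 9 of the 10 genes were found in the RefSeq promoter table (GRCm38.p6), all but Tfap2c. The 4 promoters below belong to the members with meiotic, piRNA or RNA-binding roles that were abundant enough to test, and they show the CpG-rich sequence and the motifs that set them apart from each other. Each is the 250 bases before the annotated start, 5′ to 3′ on the strand of the gene, in lower case with CACGTG (an E-box) and TCCCGC (an E2F motif, which reads GCGGGA on the other strand) in capitals.
Tex19.1 (chr11:121145893-121146142, + strand): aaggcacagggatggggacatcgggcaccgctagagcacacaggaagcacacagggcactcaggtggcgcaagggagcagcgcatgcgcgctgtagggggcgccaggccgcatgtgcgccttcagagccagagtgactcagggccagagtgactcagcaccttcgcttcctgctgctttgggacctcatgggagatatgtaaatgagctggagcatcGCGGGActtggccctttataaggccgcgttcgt
Dazl (chr17:50293621-50293870, - strand): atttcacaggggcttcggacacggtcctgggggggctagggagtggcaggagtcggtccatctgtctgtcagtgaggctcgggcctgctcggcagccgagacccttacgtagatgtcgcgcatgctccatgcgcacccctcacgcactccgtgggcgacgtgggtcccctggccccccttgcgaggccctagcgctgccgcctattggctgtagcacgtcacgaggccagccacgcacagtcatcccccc
Stk31 (chr6:49395354-49395603, + strand): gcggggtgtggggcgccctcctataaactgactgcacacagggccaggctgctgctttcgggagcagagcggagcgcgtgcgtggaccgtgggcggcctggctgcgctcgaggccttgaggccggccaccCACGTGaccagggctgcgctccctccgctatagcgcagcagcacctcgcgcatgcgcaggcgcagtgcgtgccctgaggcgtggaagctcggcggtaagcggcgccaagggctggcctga
Sycp3 (chr10:88459337-88459586, + strand): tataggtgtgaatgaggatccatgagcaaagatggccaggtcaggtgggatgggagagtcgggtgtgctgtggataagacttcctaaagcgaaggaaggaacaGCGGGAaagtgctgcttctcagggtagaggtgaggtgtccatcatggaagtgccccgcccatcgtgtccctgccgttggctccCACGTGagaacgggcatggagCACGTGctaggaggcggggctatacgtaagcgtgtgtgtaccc
The Sycp3 window held the E-box 2 times and the E2F motif once. Tex19.1 held the E2F motif alone, Stk31 the E-box alone, and neither was in the Dazl window. Of the members not printed, Mael held both motifs and Slc25a31 the E-box. The E-box was thus present in 4 of the 9 matched genes, against 6.02% of the 32851 windows of this length in the table, and the E2F motif in 3 of them (Mael, Sycp3 and Tex19.1), against 16.9%. The motifs share no bases, both are searched on both strands, and a match is a description of these letters and not a site of binding. The 10 member windows, of which Stk31 has 2, held 12 to 26 CpG (median 16.5), against a median of 6 with quartiles of 2 and 16 over all windows. Tex19.1 had 15 CpG, Dazl 20, the printed Stk31 window 26 and Sycp3, the lowest, 12.

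Of the 32 libraries, 31 held 1122648 to 3438514 counts, and replicate 2 of 2iL 36 h held 7298 and was left out, so that 2iL 36 h rests on 1 library with no spread of its own. Levels are given in CPM, counts per 1000000 counts scaled with TMM factors. A group with no count is given a floor of 3 counts. In a single library that is 0.872 to 2.67 per 1000000 counts before TMM scaling. Replicates of 4 groups differed most, 2iL 48 h, 2iL 84 h, 2iL 96 h and 2i 12 h, with a chi-square per degree of freedom between their counts of 6.35 to 16.3 against 1.99 to 5.86 in the rest. Leaving out 1 library of each of these 4 (replicate 1 at 48 and 96 h and replicate 2 at 84 h of the 2iL course, and replicate 2 at 12 h of the 2i course) ended no call on a member described below. Since these groups had the widest spread, this setting favours keeping calls and is a weak check. Leaving out replicate 1 of 2iL 48 h alone did end the Dazl call at 48 h. All 8 markers of embryonic stem cells were detected in every group, and their summed level fell from 3017 to 3196 CPM at 0 h of the 2iL course to 522 to 561 CPM at 96 h, and from 2012 to 2123 CPM to 454 to 459 CPM at 84 h of the 2i course. In RNA from whole cultures, fewer cells with a transcript and less of it per cell cannot be told apart. Reads outside genes or ambiguous between genes made up 42.7 to 54.0% in the 84 and 96 h libraries of the 2iL course against 41.2 to 47.1% at 0 h, and 49.3 to 55.6% at 72 and 84 h of the 2i course against 30.9 to 46.4%. The 10 most abundant genes took 35.5 to 43.5% of counts at 12 h of the 2i course and 30.5 to 30.6% at 24 h of the 2iL course, against 22.3 to 24.7% and 17.1 to 18.9% at 0 h. Their part in the results was not tested.

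Tex19.1, Dazl, Stk31, Sycp3, Tfap2c and Prdm1 passed the filter on low counts, and Mael, Slc25a31, Tex101 and Asz1 did not. The 6 that passed followed 3 courses. Tex19.1 and, from their own starting points, Dazl and Stk31 were high in the first day and fell to a few counts or none by the end. Tfap2c and Prdm1 were highest before withdrawal. Sycp3 was lowest before withdrawal, rose, and stayed high only in the 2iL course. Each of the 6 changed over both courses in joint tests of 7 times against 0 h (largest adjusted p 2.6e-07 for Dazl in the 2iL course and 0.00018 for Sycp3 in the 2i course), where 56.5% and 52.3% of the 12556 tested genes were called. Against 0 h, the genes called were 11.6% of those tested at 24 h of the 2iL course, 10.8% at 36 h, 29.1% at 48 h, 27.7% at 60 h, 28.8% at 72 h, 34.8% at 84 h and 39.5% at 96 h. The 2i course had 10.8% at 12 h, 17.3% at 24 h, 17.5% at 36 h, 20.2% at 48 h, 24.1% at 60 h, 28.2% at 72 h and 33.2% at 84 h. Between the courses at the same time, 10.6% were called at 24 h, 7.32% at 36 h, 17.3% at 48 h, 16.3% at 60 h, 12.2% at 72 h and 14.5% at 84 h.

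**Figure D1:**
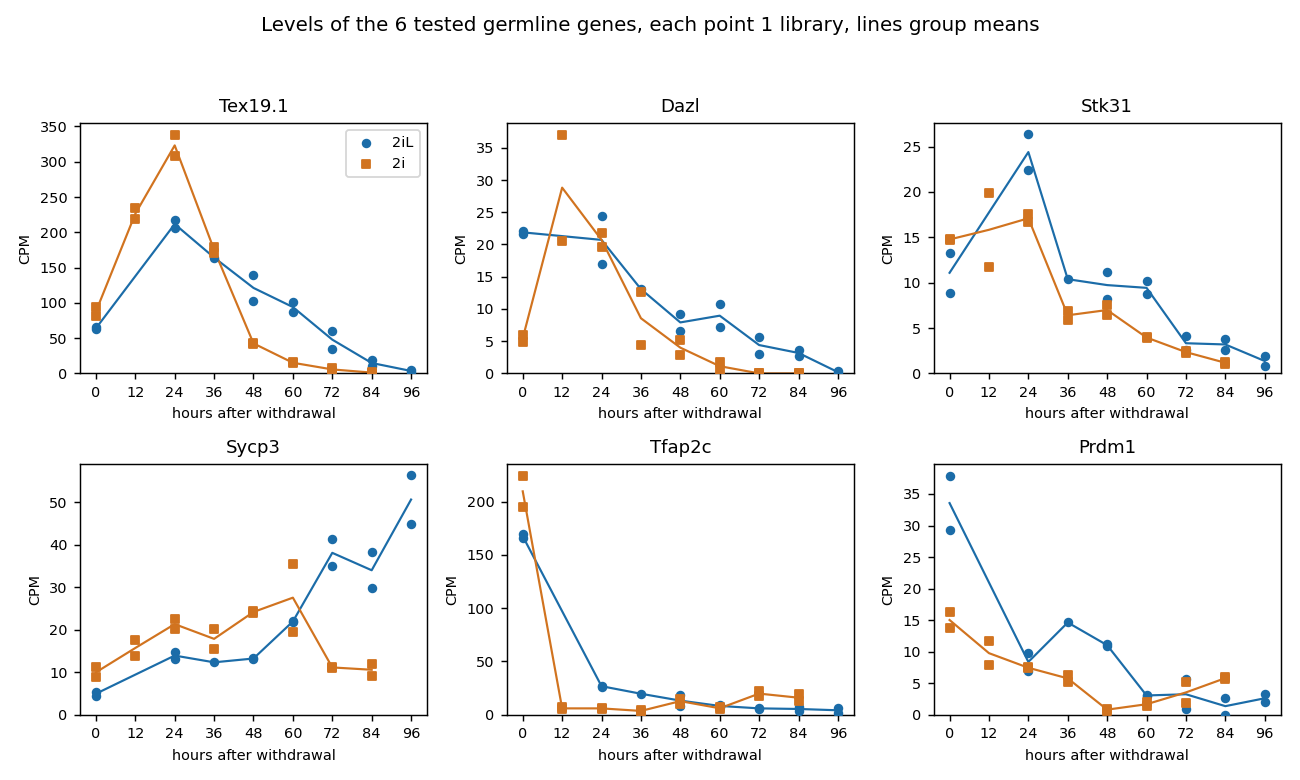
Level in CPM (linear axis) against hours after withdrawal for the 6 germline genes that were tested, with 1 point per library (circles 2iL, squares 2i) and lines through group means. Tex19.1 peaks at 24 h in both courses (means of 212 and 323 CPM), Tfap2c is highest at 0 h in both, and Sycp3 ends at 44.8 and 56.4 CPM in the 2iL course and at 12.0 and 9.12 CPM in the 2i course.

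Before withdrawal, Dazl was the member that differed most between the media, and it was lower without LIF. Dazl encodes an RNA-binding protein that controls translation in germ cells, and it lies on chr17:50279395-50293636 (- strand, mm10). It stood at 22.1 and 21.7 CPM in 2iL and at 5.96 and 4.95 CPM in 2i, so the 2 media did not overlap. Its log2 change was -1.98 (SE 0.41, adjusted p = 0.0017), and it was lower in both 2i libraries. Prdm1, which represses somatic genes in primordial germ cells, stood at 37.9 and 29.2 CPM in 2iL and at 16.3 and 13.7 CPM in 2i, again without overlap, with a log2 change of -1.15 (SE 0.36, adjusted p = 0.045). Leaving out any 1 of the 4 libraries ended the Prdm1 call. The values were -1.35 (adjusted p = 0.0836) without replicate 2 of 2iL 0 h, -0.95 (0.355) without replicate 1 of 2iL 0 h, -1.29 (0.169) without replicate 1 of 2i 0 h and -1.04 (0.245) without replicate 2 of 2i 0 h. DESeq2 gave an adjusted p of 0.178. The remaining 4 tested members did not pass at 0 h, with log2 changes of 1.02 (SE 0.36, adjusted p = 0.085) for Sycp3, 0.46 (SE 0.22, 0.25) for Tex19.1, 0.41 (SE 0.31, 0.56) for Stk31 and 0.33 (SE 0.22, 0.49) for Tfap2c. Thus 2 of the 6 were called, both lower, where 8.0% of all tested genes were called and 4.24% were lower. In the same comparison the Dnmt3 transcripts were higher in 2i, Dnmt3l by a log2 change of 3.64 (SE 0.23, adjusted p = 1.5e-12), Dnmt3a by 2.38 (SE 0.19, 1.8e-10) and Dnmt3b by 2.26 (SE 0.17, 7.4e-11).

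The Dnmt3 transcripts peaked at different times, and the highest group mean of each of the 3 came at an earlier sampled time in the 2i course than in the 2iL course. For Dnmt3l this order is limited by the sampling: its 2i maximum is at 12 h, a time not sampled in the 2iL course, and its 2iL maximum at 36 h is 1 library that did not differ from 24 h (log2 change 0.15, SE 0.21, adjusted p = 0.96). In the 2iL course Dnmt3l stood at 12.1 and 12.8 CPM at 0 h, 635 and 618 at 24 h, 695 at 36 h, 524 and 540 at 48 h, 104 and 110 at 72 h, and 15.6 and 28.8 at 96 h. Dnmt3a had its highest mean there at 60 h (874 and 758 CPM, against 35.4 and 38.1 at 0 h), and Dnmt3b at 72 h (1963 and 2033 CPM, against 64.1 and 63.3). In the 2i course the highest means were at 12 h for Dnmt3l (862 and 732 CPM, against 154 and 158 at 0 h), at 24 h for Dnmt3a (910 and 755, against 199 and 184) and at 36 h for Dnmt3b (2013 and 1999, against 307 and 306). Neighbouring times near these maxima were often not separable: Dnmt3b did not differ between 60 and 72 h of the 2iL course (log2 change 0.06, SE 0.15, adjusted p = 0.93) or between 36 and 48 h of the 2i course (-0.04, SE 0.15, 0.97). By 84 h of the 2i course Dnmt3l (2.53 and 2.68 CPM) and Dnmt3b (162 and 167 CPM) were below their starting levels, with log2 changes of -5.87 (SE 0.31, adjusted p = 2e-15) and -0.90 (SE 0.16, 7.1e-05). Dnmt3a (96.6 and 110 CPM) was below its own as well (-0.89, adjusted p = 0.00023 in edgeR). Counts of Dnmt3l and Dnmt3a can include reads of Aire and Dnmt3aos, which overlap their exons on the opposite strand, since the use of strand in counting is not given in the sources used here.

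**Figure D2:**
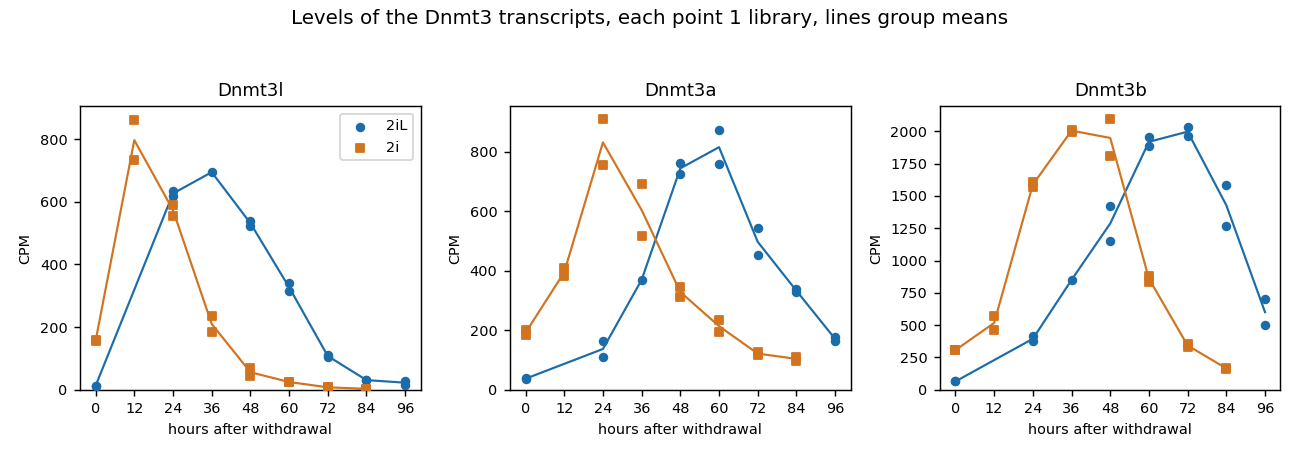
Level in CPM (linear axes that differ between panels) of Dnmt3l, Dnmt3a and Dnmt3b against hours after withdrawal, with 1 point per library and lines through group means. The highest group means come in the order Dnmt3l, Dnmt3a, Dnmt3b in both courses, at 36, 60 and 72 h in the 2iL course and at 12, 24 and 36 h in the 2i course.

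Tex19.1 rose on the first day of both courses and then fell almost to the floor, and it fell earlier in the 2i course. It encodes a mammal-specific protein that restrains retrotransposons in the germ line and placenta, and it lies on chr11:121146143-121148319 (+ strand). Its 2iL libraries stood at 65.4 and 62.5 CPM at 0 h, 206 and 217 at 24 h, 164 at 36 h and 103 and 139 at 48 h. They went on to 87.5 and 101 at 60 h, 35.1 and 60.6 at 72 h, 19.3 and 10.2 at 84 h, and 2.6 and 4.28 at 96 h. The highest libraries were thus those of 24 h and the lowest those of 96 h. Its 2i libraries stood at 94.5 and 80.8 at 0 h, 218 and 234 at 12 h, 308 and 339 at 24 h, and 171 and 180 at 36 h. From there they went to 41.4 and 43.6 at 48 h, 15.6 and 14.5 at 60 h, 3.07 and 8.19 at 72 h, and 0.631 and 1.61 at 84 h. The libraries of 12, 24 and 36 h of the 2i course all lay above those of 0 h, and those of 48 h and later all below.

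Against 0 h, Tex19.1 was higher at 24 h of both courses, with log2 changes of 1.73 (SE 0.22, adjusted p = 1.2e-06) in 2iL and 1.88 (SE 0.21, 7.1e-08) in 2i. It was lower at 48 h of the 2i course (-1.04, SE 0.23, adjusted p = 0.0012), a time at which it was still higher in the 2iL course (0.92, SE 0.22, 0.0015). In the 2iL course it was neither higher nor lower by the test at 60 h (0.55, SE 0.22, adjusted p = 0.059) and at 72 h (-0.43, SE 0.23, 0.17), and was lower at 84 h (-2.11, SE 0.27, 2.4e-07) and 96 h (-4.12, SE 0.34, 4.2e-11). Without replicate 2 of 2iL 72 h the fall already passed at 72 h (-0.86, adjusted p = 0.0211), and without the 4 libraries that stand apart both the 60 h value (0.55, 0.00563) and the 72 h value (-0.45, 0.0436) passed. The end of the 2i course was lower still, at -6.17 (SE 0.42, adjusted p = 8.5e-13) at 84 h, on 4 counts in all, and -6.96 without replicate 2 of 2i 84 h. The largest step between neighbouring times of the 2i course that passed was from 36 to 48 h (-2.04, SE 0.23, adjusted p = 2e-06), where 1.82% of genes were called. In direct comparison, the 2iL level exceeded the 2i level by 1.5 (SE 0.23, adjusted p = 1.8e-05) at 48 h, 2.63 (SE 0.26, 9.8e-09) at 60 h and 3.11 (SE 0.35, 1.5e-07) at 72 h, and did not differ by the test at 36 h (-0.09, SE 0.25, 0.92). The 72 h difference was 2.52 without replicate 1 of 2i 72 h and 3.89 without replicate 2 of 2i 72 h. Tex19.1 has a paralog nearby, Tex19.2, and reads that fit both could be lost or misassigned in counting.

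Dazl fell through the 2iL course, but in the 2i course it first rose to the level seen in 2iL and then was lost. Levels in the 2iL course were 22.1 and 21.7 CPM at 0 h, 17.0 and 24.4 at 24 h, 13.1 at 36 h and 6.59 and 9.22 at 48 h. Later they were 7.14 and 10.8 at 60 h, 5.71 and 3.08 at 72 h, 3.65 and 2.69 at 84 h, and 0 and 0.389 at 96 h. No library after 24 h reached those of 0 h. Without LIF at the start it went from 5.96 and 4.95 at 0 h to 37.1 and 20.6 at 12 h and 19.6 and 21.8 at 24 h. It then fell to 12.7 and 4.42 at 36 h, 5.17 and 2.82 at 48 h and 1.74 and 0.500 at 60 h, and all 4 libraries of 72 and 84 h held no count. Both libraries of 12 and of 24 h lay well above both of 0 h, while those of 36 h straddled them.

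The rise of Dazl at 12 h of the 2i course was 2.41 on the log2 scale (SE 0.42, adjusted p = 0.00024), and that at 24 h was 1.90 (SE 0.41, 0.0013), both higher in 2 of 2 libraries. These are the times of the highest Dnmt3l and Dnmt3a means. By 60 h Dazl was below 0 h (-2.19, SE 0.68, adjusted p = 0.018), on 5 counts, and this call was lost without replicate 1 of 2i 0 h (-2.04, adjusted p = 0.122) or replicate 2 of 2i 60 h (-1.61, 0.167), with -3.29 (0.0321) without replicate 1 of 2i 60 h. With 24 counts at 0 h and none later, Dazl was at least 5.48-fold lower at 72 h (adjusted p = 0.00079) and at least 6.36-fold lower at 84 h (0.00038), against a floor of 3 counts over the group. In the 2iL course Dazl did not differ from 0 h at 24 h (-0.10, SE 0.37, adjusted p = 0.91), and it was lower at 48 h (-1.48, SE 0.37, 0.0035), 72 h (-2.26, SE 0.42, 0.00012) and 84 h (-2.76, SE 0.47, 2.7e-05). The 48 h call was lost without replicate 1 of 2iL 48 h (-1.24, adjusted p = 0.055). At 96 h 1 count stood against 102 at 0 h, a ratio of 90.0 with a 95% counting interval of 15.8 to 3588. At 60 h Dazl was higher in the 2iL than in the 2i course by 2.86 (SE 0.62, adjusted p = 0.0017), and by 3.97 without replicate 1 of 2i 60 h.

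Stk31, a kinase-like Tudor domain protein of the germ line (chr6:49395604-49469501, + strand), moved in a similar range to Dazl but without its difference between the media. From 2iL it stood at 13.3 and 8.86 CPM at 0 h, 22.4 and 26.4 at 24 h, 10.4 at 36 h and 8.24 and 11.2 at 48 h. The following libraries had 10.1 and 8.72 at 60 h, 4.08 and 2.57 at 72 h, 2.61 and 3.77 at 84 h, and 1.95 and 0.778 at 96 h. Libraries of 36 to 60 h lay close to those of 0 h. From 2i it stood at 14.7 and 14.8 at 0 h, 19.9 and 11.8 at 12 h, 16.7 and 17.5 at 24 h and 6.93 and 5.89 at 36 h. After that it stood at 6.46 and 7.51 at 48 h, 3.9 and 4.0 at 60 h, 2.46 and 2.23 at 72 h, and 1.26 and 1.07 at 84 h. The 24 h libraries of the 2iL course were the highest of all, and every library of 72 h and later in either course lay below every library up to 60 h of the 2iL course.

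By the test, Stk31 was lower from 72 h on in the 2iL course (-1.69, SE 0.39, adjusted p = 0.0011 at 72 h and -3.12, SE 0.49, 5.9e-06 at 96 h) and from 36 h on in the 2i course (-1.19, SE 0.36, 0.021 at 36 h and -3.60, SE 0.50, 1e-06 at 84 h). The 2i calls at 36 h and at 48 h (-1.06, SE 0.35, adjusted p = 0.027) were both lost in DESeq2 (0.112 and 0.145) and without the low count filter (0.0651 and 0.0926). Each was also lost without either replicate of 2i 0 h or of its own time, with adjusted p of 0.0682 to 0.136 at 36 h and 0.0805 to 0.139 at 48 h. From 60 h (-1.88, SE 0.37, adjusted p = 0.00025) the fall did not depend on 1 library. At 96 h the value was -3.71 without replicate 1 of 2iL 96 h and -2.48 without replicate 2. The rise at 24 h of the 2iL course (1.12, SE 0.32, adjusted p = 0.018) did not hold in DESeq2 (0.0974). Nor did it hold without the low count filter (0.0689) or when only libraries of the 2iL course were fitted (0.0725). It was also lost without replicate 2 of 2iL 0 h (log2 change 0.82). The same held without replicate 1 (1.19) or replicate 2 (1.01) of 2iL 24 h. A joint test found no difference between its 2 courses (adjusted p = 0.16), which does not show that they were alike.

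Sycp3 went the other way. It encodes a lateral element protein of the synaptonemal complex, the scaffold that joins homologous chromosomes in meiosis, and lies on chr10:88459569-88473236 (+ strand). The 2iL libraries held 5.41 and 4.43 CPM at 0 h, 13.1 and 14.6 at 24 h, 12.3 at 36 h and 13.2 and 13.2 at 48 h. They held 21.8 and 22.1 at 60 h, 41.2 and 34.9 at 72 h, 29.7 and 38.2 at 84 h, and 44.8 and 56.4 at 96 h. The libraries of 96 h were the highest. The 2i libraries held 11.1 and 8.79 at 0 h, 13.7 and 17.6 at 12 h, 22.5 and 20.0 at 24 h and 20.2 and 15.5 at 36 h. They held 23.9 and 24.4 at 48 h, 19.5 and 35.5 at 60 h, 11.1 and 11.2 at 72 h, and 12.0 and 9.12 at 84 h. All later libraries of the 2iL course lay above those of 0 h, whereas in the 2i course those of 72 and 84 h were back near those of 0 h.

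Sycp3 was higher at 48 h of the 2iL course (1.41, SE 0.34, adjusted p = 0.0018), at 72 h (2.94, SE 0.31, 5.3e-09) and at 96 h (3.35, SE 0.30, 2.1e-10). Its earlier rise at 24 h (1.48, SE 0.38, adjusted p = 0.0093) was lost without replicate 2 of 2iL 0 h (1.30, 0.0879), replicate 1 of 2iL 24 h (1.51, 0.0517) or replicate 2 of 2iL 24 h (1.41, 0.0694). In the 2i course it was higher at 48 h (1.26, SE 0.29, adjusted p = 0.0018) and 60 h (1.43, SE 0.29, 0.00028) and did not pass at 84 h (0.06, SE 0.34, 0.94). Between the courses it was higher in 2iL by 1.78 (SE 0.29, adjusted p = 6.7e-05) at 72 h and 1.69 (SE 0.29, 0.00012) at 84 h. At 48 h Sycp3 was lower in 2iL than in 2i (-0.87, adjusted p = 0.026 in edgeR), a call lost in 7 of 12 alternatives. Sycp3 had its highest mean in the 2iL course at 96 h, when Dnmt3b had fallen to 500 and 700 CPM, and its second highest at 72 h, when Dnmt3b was at its maximum. The gene shares exonic sequence with Chpt1 on the opposite strand, whose counts were 12 and 10 at 0 h and 3 and 13 at 96 h of the 2iL course, against 13 and 10 and then 69 and 145 for Sycp3. Reads of the pair cannot be told apart if strand was not used.

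Tfap2c, the AP-2 gamma transcription factor (chr2:172549593-172558622, + strand), fell most sharply and soonest. After 2iL it went from 169 and 166 CPM at 0 h to 27.1 and 26.4 at 24 h, 19.6 at 36 h and 7.91 and 18.4 at 48 h. It ended at 7.14 and 9.23 at 60 h, 6.12 and 5.65 at 72 h, 3.65 and 7.0 at 84 h, and 1.95 and 6.22 at 96 h. The step within the first day was the largest. After 2i it went from 224 and 195 at 0 h to 6.86 and 4.90 at 12 h, 6.37 and 5.37 at 24 h and 4.04 and 2.94 at 36 h. Later libraries had 10.3 and 15 at 48 h, 6.94 and 5.0 at 60 h, 17.2 and 22.3 at 72 h, and 18.9 and 12.9 at 84 h. No later library of either course came near those of 0 h. The log2 change was -5.11 (SE 0.35, adjusted p = 5.7e-12) at 12 h of the 2i course, when Dnmt3l stood at 100% of its highest group mean, Dnmt3a at 47.5% and Dnmt3b at 25.8%, and -2.64 (SE 0.28, 3.9e-08) at 24 h of the 2iL course, when these stood at 90.2%, 16.8% and 19.7%. At 24 h the 2iL level exceeded the 2i level by 2.19 (SE 0.38, adjusted p = 0.00012), and at 72 h it was lower by 1.72 on the log2 scale (log2 difference -1.72, SE 0.39, 0.0026), so the order of the courses turned.

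Prdm1 (chr10:44437177-44528501, - strand) was also highest before withdrawal in both courses, at low levels. With 2iL at the start it went from 37.9 and 29.2 CPM at 0 h to 6.96 and 9.76 at 24 h, 14.6 at 36 h and 11.2 and 10.8 at 48 h. Next came 3.0 and 3.08 at 60 h, 0.816 and 5.65 at 72 h, 0 and 2.69 at 84 h, and 3.25 and 1.94 at 96 h. The single 36 h library was above both of 24 h. With 2i at the start it went from 16.3 and 13.7 at 0 h to 11.7 and 7.84 at 12 h, 7.35 and 7.51 at 24 h and 6.35 and 5.15 at 36 h. It reached 0.646 and 0.938 at 48 h, 1.30 and 2.0 at 60 h, 1.84 and 5.21 at 72 h, and 5.68 and 5.90 at 84 h. No library after 0 h reached those of 0 h in its course. The log2 change was -2.02 (SE 0.44, adjusted p = 0.0022) at 24 h and -3.44 (SE 0.46, 6.5e-07) at 60 h of the 2iL course. In the 2i course 3 counts at 48 h stood against 66 at 0 h, a ratio of 18.7 with a counting interval of 6.11 to 92.8 (adjusted p = 2.6e-05), and the change at 60 h was -3.16 (SE 0.57, 7.3e-05). At 48 h its counts were 61 in 2iL and 3 in 2i, a ratio of 13.5 with a counting interval of 4.42 to 67.4 (adjusted p = 0.00033).

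Mael, Slc25a31, Tex101 and Asz1 were at or near the floor, did not pass the low count filter, and are given as counts. Asz1, a component of the machinery that makes piRNAs, had at most 1 count in any library and 7 in all 31, so it was at or under the floor in each library. Mael, another piRNA factor, had 98 counts over the 31 libraries. Its 2iL counts were 1 and 1 at 0 h, 0 and 2 at 24 h, 1 at 36 h and 6 and 5 at 48 h. They were 4 and 7 at 60 h, 5 and 10 at 72 h, 5 and 3 at 84 h, and 0 and 3 at 96 h. The 2i counts were 0 and 1 at 0 h, 2 and 1 at 12 h, 10 and 3 at 24 h, 3 and 2 at 36 h, 6 and 7 at 48 h, 4 and 5 at 60 h, 0 and 0 at 72 h, and 0 and 1 at 84 h. Relative to depth, 15 counts at 72 h against 2 at 0 h of the 2iL course make a ratio of 7.95 (counting interval 1.85 to 71.6), and 13 against 1 at 48 h of the 2i course make 15.3 (2.30 to 652). From 60 to 72 h of the 2i course Mael went from 9 counts to 0, at least 2.07-fold lower.

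Slc25a31, the ADP and ATP carrier of the male germ line, had 98 counts, with at most 11 in a library (replicate 2 of 2i 24 h). It went from 1 count at 0 h to 16 at 24 h of the 2i course, a ratio of 14.4 (counting interval 2.23 to 602), and 1 count was left at each of 72 and 84 h. In the 2iL course its counts per library ran from 0 to 8 with no group above 11 in total. Tex101, a surface glycoprotein of male germ cells, had 61 counts with at most 10 in a library. Its 2i counts were 2 and 0 at 0 h, 1 and 4 at 12 h, 3 and 10 at 24 h, and at most 2 in each later library, and 13 counts at 24 h against 2 at 0 h make a ratio of 5.83 (1.32 to 53.2). These intervals cover counting error only and leave out any further spread between libraries of 1 group, which held 3 and 10 counts of Tex101 at 24 h of the 2i course.

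**Figure D3:**
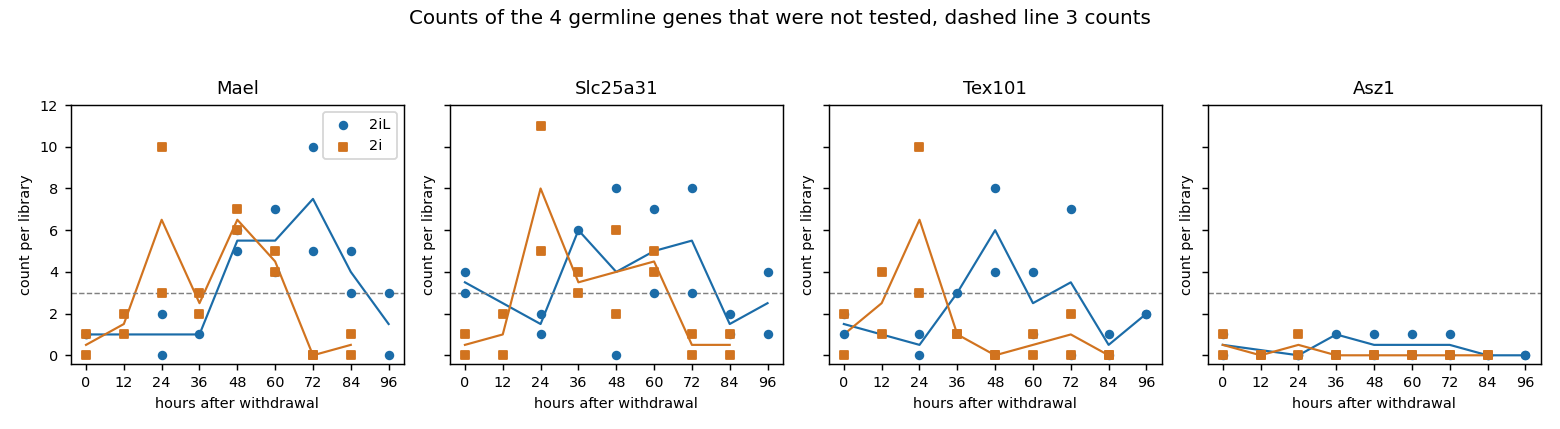
Raw counts per library against hours after withdrawal for Mael, Slc25a31, Tex101 and Asz1, with circles for 2iL, squares for 2i, lines through group means and a dashed line at the floor of 3 counts. No library holds more than 11 counts of any of the 4 genes, and Asz1 never exceeds 1.

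Set on a common scale, the group means of Tex19.1, Dazl and Stk31 fell from their maxima while that of Dnmt3b was still rising. They were low at its maximum in the 2iL course, and less so at its maximum in the 2i course. At 36 h of the 2iL course Dnmt3b was at 42.5% of its highest group mean, and Tex19.1 stood at 77.6%, Dazl at 59.8% and Stk31 at 42.6% of theirs. At 48 h Dnmt3b was at 64.4%, with Tex19.1 at 57.2%, Dazl at 36.1% and Stk31 at 39.9%. These means carry the spread of 2 libraries, or of 1 at 36 h. In the 2iL course none of Tex19.1, Dazl and Stk31 had a called step between neighbouring times from 24 to 60 h, so the order there is one of means. At 72 h of the 2iL course Dnmt3b was at 100% of its highest group mean, and Tex19.1 stood at 22.6%, Dazl at 20.1%, Stk31 at 13.6% and Dnmt3l at 15.4% of theirs. At 36 h of the 2i course, the maximum of Dnmt3b there, Tex19.1 stood at 54.2%, Dazl at 29.7% and Stk31 at 37.5%. Tex19.1 was then still above 0 h (log2 change 0.99, adjusted p = 0.001 in edgeR). The step from 24 to 36 h of the 2i course was -0.88 for Tex19.1 (adjusted p = 0.029 in edgeR), -1.40 for Stk31 (0.045) and -1.22 for Dazl (0.20, not called). The Tex19.1 call was lost in 4 of 13 alternatives and the Stk31 call in 6 of 13. At 48 h of the 2i course Dnmt3b was at 97.2%, and Tex19.1 stood at 13.2%, Dazl at 13.9%, Stk31 at 40.8% and Dnmt3l at 6.99%. On the first day the order was different. At 24 h of the 2i course Dnmt3b had reached 79.2% and Dnmt3a 100%, and Tex19.1 and Stk31 were at their own highest means with Dazl at 71.9%. At the last times the RNA of Tex19.1, Dazl and Stk31 stayed low although the Dnmt3 transcripts had fallen: at 84 h of the 2i course Dnmt3b was at 8.20% and Dnmt3a at 12.4%, and Tex19.1 was at 0.347%, Dazl at 0% and Stk31 at 6.83%. Values at different times of 1 course share the same cells' history and the same 0 h libraries, and no correlation with the Dnmt3 transcripts is given.

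**Figure D4:**
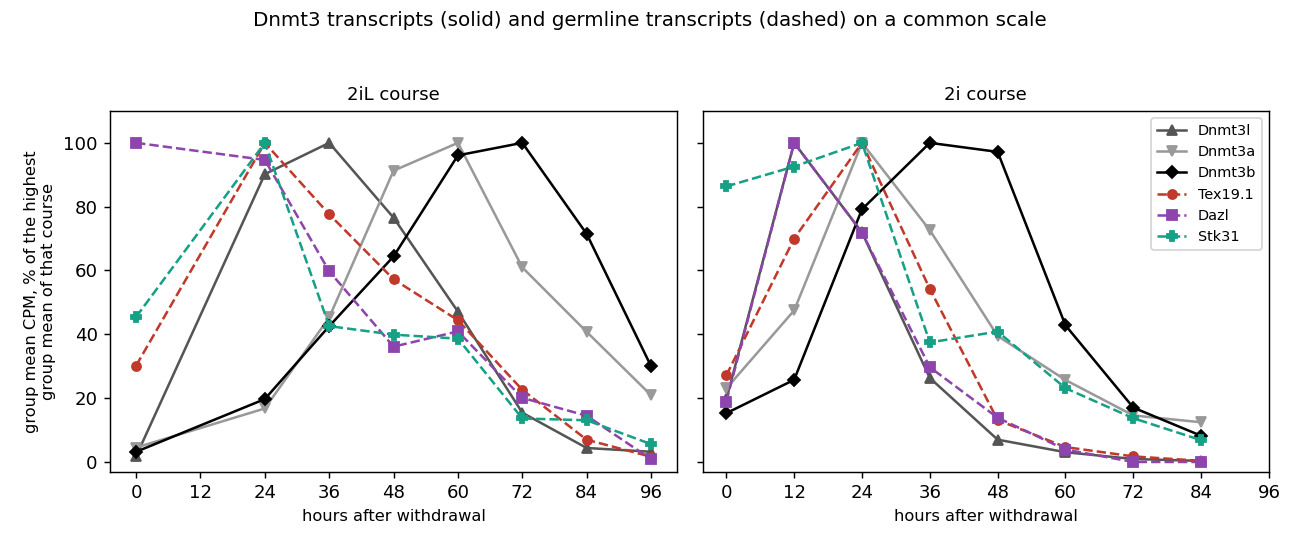
Group mean CPM as a percentage of the highest group mean of the same course (linear axis) against hours after withdrawal, for Dnmt3l, Dnmt3a and Dnmt3b (solid) and Tex19.1, Dazl and Stk31 (dashed), in the 2iL course (left) and the 2i course (right). At 72 h of the 2iL course Dnmt3b is at 100% and the 3 germline genes at 13.6 to 22.6%, and at 84 h of the 2i course all 6 lie at 12.4% or less.

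Counted over the 6 tested members, 3 were higher and 2 lower at 24 h of the 2iL course, where 5.65% and 5.92% of all genes were, and the total of 5 dropped to 3 without replicate 2 of 2iL 0 h, replicate 1 of 2iL 24 h or replicate 2 of 2iL 24 h. At 96 h Sycp3 alone was higher and the other 5 lower, where 19.5% and 20.1% of genes were. In the 2i course Dazl and Tex19.1 were higher and Tfap2c lower at 12 h, against 5.43% and 5.37% of genes, and Sycp3 joined the former at 24 h, against 8.47% and 8.86%. That Sycp3 call (1.07, SE 0.29, adjusted p = 0.0088) was lost without replicate 2 of 2i 0 h (0.93, 0.0917) or replicate 1 of 2i 24 h (0.98, 0.0632). By 84 h none was higher and 5 were lower (Dazl, Stk31, Tex19.1, Tfap2c and Prdm1), against 16.6% and 16.6% of genes. The Prdm1 call there (-1.37, SE 0.47, adjusted p = 0.024) was lost in DESeq2 (0.0863) and without replicate 1 of 2i 0 h (-1.23, 0.141), replicate 1 of 2i 84 h (-1.32, 0.111) or replicate 2 of 2i 84 h (-1.38, 0.117). At 96 h of the 2iL course and 84 h of the 2i course, the final times, Stk31, Tex19.1, Tfap2c, Prdm1 and Dazl were thus all below their starting levels. The joint test of the difference between the courses over 6 shared times called 5 of the 6, where 22.5% of genes were called, with Stk31 the one that did not pass. Of the single differences in change from 0 h, that of Tex19.1 was higher in the 2iL course by 1.96 (SE 0.32, adjusted p = 7.9e-05) at 48 h (9.17% of genes called), where it was up in 2iL and down in 2i, and by 3.57 (SE 0.42, 3.3e-07) at 72 h (9.80% called, and 2.98 without replicate 1 of 2i 72 h and 4.32 without replicate 2 of 2i 72 h), and Sycp3 rose more by 2.80 (SE 0.46, 8.7e-05) at 72 h.

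Other genes of meiosis and the piRNA pathway moved in both directions. Of a list of 34, 27 were tested. At 24 h of the 2iL course 5 were higher and none lower, where 5.65% and 5.92% of all tested genes were. The median log2 change was 0.03 against -0.03 over all genes. At 96 h 5 were higher and 12 lower, where 19.5% and 20.1% of genes were. The median was -1.82 (-1.69 with genes at no count set to their bound) against -0.01. In the 2i course 10 were higher and 2 lower at 24 h (median 1.09 against -0.02), where 8.47% and 8.86% of genes were. At 84 h 1 was higher and 15 lower (median -2.23, or -2.08 with bounds, against -0.0008), where 16.6% and 16.6% of genes were. The largest called rises at 24 h of the 2iL course were Smc1b, a meiotic cohesin (2.93, SE 0.49, adjusted p = 1e-04), Tex19.2, the paralog of Tex19.1 (2.23, SE 0.50, 0.0031) and Zcwpw1, a reader of histone marks at meiotic recombination sites (2.05, SE 0.29, 7e-06). At 84 h of the 2i course the largest falls included Sohlh2, a germ cell transcription factor with 37 counts at 0 h and none at 84 h (at least 9.80-fold lower), and Tdrd12, a piRNA factor (-6.61, SE 0.36, 5.3e-15). Rpl10l fell most there, from 749 counts to 3, and has a near-identical copy, so its counts are uncertain.

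Tdrd1, a Tudor protein that binds piRNA effectors, and Ddx4, the germ cell RNA helicase, were also higher late in the 2iL course than at 0 h, with more counts at 72 h than at 96 h. Tdrd1 had no count at 0, 24 and 36 h, 50 counts at 72 h (at least 17.7-fold higher than 0 h, adjusted p = 5e-06) and 19 at 96 h (at least 7.18-fold, 0.00048). In the 2i course it began with 20 counts and at 84 h had 5. Ddx4 was higher in 2i than 2iL at 0 h by 2.32 (SE 0.46, adjusted p = 0.00077) and rose in the 2iL course by 2.91 (SE 0.43, 3.2e-06) at 72 h and 1.79 (SE 0.49, 0.0041) at 96 h. Sycp1, the transverse filament of the synaptonemal complex, passed at neither 72 h (0.70, SE 0.68, adjusted p = 0.5) nor 96 h (-0.35, SE 0.80, 0.76) of the 2iL course, on 14 and 6 counts.

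Of 12 genes known from primordial germ cells, 10 were tested, and 9 of these were below 0 h at 96 h of the 2iL course and 1 above (median -3.73, or -2.95 with bounds, against -0.01). There 20.1% of all tested genes were called lower and 19.5% higher. At 24 h of the 2iL course 1 was higher and 5 lower (median -1.66 against -0.03), where 5.65% and 5.92% of genes were. At 12 h of the 2i course 1 was higher and 5 lower (median -1.59 against -0.02), where 5.43% and 5.37% of genes were. Prdm14, the partner of Prdm1 and Tfap2c in germ cell specification, went from 24 counts at 0 h to none at 24 h of the 2i course (at least 8.92-fold lower, adjusted p = 0.0043). Nanos3, a translational repressor of germ cells, went from 61 to none (at least 22.7-fold, 0.00011). Several genes of this list, among them Kit, Dppa3 and Alpl, are also expressed by naive embryonic stem cells, whose markers fell over the same times as given above. Of other cell types, the 8 markers of 2-cell-like cells summed to at most 14.3 CPM, the 10 endoderm markers to at most 15 CPM with Ttr at 0 in all 31 libraries, the 10 trophoblast markers to 11.3 to 64.3 CPM and the 8 fibroblast markers to 1.77 to 48.6 CPM, highest at 96 h of the 2iL course. Their part in the fall of Tfap2c and the rise of Sycp3 was not tested.

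Genes that maintain or erase DNA methylation were followed in the same libraries. Dnmt1 passed at none of 24, 48 and 72 h of either course, and was lower at 96 h of the 2iL course (-0.56, SE 0.19, adjusted p = 0.02). Uhrf1 was higher at 12 h of the 2i course (0.75, SE 0.18, adjusted p = 0.0061) and lower at 96 h of the 2iL course (-1.28, SE 0.19, 2e-06). Of the oxidases that start demethylation, Tet1 was lower at 96 h of the 2iL course (-2.12, SE 0.20, adjusted p = 4.1e-10) and at 84 h of the 2i course (-2.23, SE 0.21, 5e-10), Tet2 was lower at 96 h (-2.84, SE 0.34, 6.2e-08) and not called at 84 h of the 2i course (-0.70, SE 0.38, 0.15), and Tet3 was higher at both (2.92, SE 0.37, 1.6e-07 and 3.96, SE 0.41, 5.7e-09). Dppa3, which protects against maintenance methylation in the oocyte, had 177 counts at 0 h and 9 at 24 h of the 2iL course (-3.27, SE 0.46, adjusted p = 1.2e-05). Of 14 genes of PRC1.6 and its partners, all tested, 1 was higher and 7 lower at 96 h of the 2iL course (median -0.78 against -0.01). There 19.5% and 20.1% of all tested genes were higher and lower. At 84 h of the 2i course 2 were higher and 5 lower (median -0.39 against -0.0008), where 16.6% and 16.6% of genes were. E2f6 did not pass at 96 h of the 2iL course (0.37, SE 0.33, adjusted p = 0.4), Mga did not either (-0.10, SE 0.21, 0.73), and Pcgf6, its Polycomb subunit, stood at -0.42 (SE 0.22, 0.14). At 84 h of the 2i course Mga was lower (-0.59, SE 0.21, adjusted p = 0.031).

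Genes whose level followed that of a member most closely across the 31 libraries were named for members with a mean log2 CPM of at least 3, among 8254 genes at that level. For Tex19.1 they were Zfp985 (Pearson r of 0.97), Rpl39l (0.97) and Aurkaip1 (0.96). For Tfap2c they were Lefty2 (0.90), Eid2 (0.88) and Cst3 (0.86), and for Sycp3 Hook1 (0.83), Emb (0.83) and Gng3 (0.82). These are descriptions over libraries that share 2 time courses and their 0 h groups, and Dazl, Stk31 and Prdm1 were below that level.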

How the data were processed

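RNA was measured in 32 libraries made from poly(A) RNA and read from the 3′ end (NEGEDIA Digital mRNAseq, per the labels' protocols). STAR 2.6.0a, HTSeq, bcl2fastq and the mm10 build are listed in the submitters' processing notes. The annotation and the use of strand are not given in the sources used here. The authors deposited whole-number read counts for 31053 genes per library, with 5 summary lines that were left out. Reads outside genes or ambiguous between genes were 23.8 to 55.6% of these reads and the counted ones together. Symbols and positions came from GENCODE. The deposited CPM table was not used.

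Counts were tested in edgeR 4.0.16 (R 4.3.3) with TMM and filterByExpr, which left 12556 genes, in 1 fit of 31 libraries with a coefficient per group (15 residual degrees of freedom, common dispersion 0.0213). Benjamini-Hochberg adjustment of the quasi-likelihood p-values ran over these genes, and genes under 0.05 are called. SE is that of the log2 change. A group without counts was set to a floor of 3 counts, and 1 to 3 counts give a ratio with a 95% exact Clopper-Pearson interval. Comparisons were 2i with 2iL, times with 0 h and with the time before, the courses with each other, and joint tests. Tests were checked on simulated data. Likeness is Pearson's r of log2 CPM with a prior count of 2. Named genes are the members, the Dnmt3 genes, 11 fixed genes (Dnmt1, Uhrf1, Tet1, Tet2, Tet3, Prdm14, Ddx4, Sycp1, E2f6, Mga, Pcgf6) and up to 3 called genes of each list with the largest change. Dppa3, Tex19.2, Tdrd1 and Nanos3 fall under that rule, and Kit and Alpl are named as examples of the list. The members and lists were chosen with earlier results of these data known. Alternatives were DESeq2 1.42.0 and its size factors, other filters, a replicate block, the shallow library kept, and libraries left out. Fits of 1 course alone, and of the 0 h libraries alone for 2i against 2iL at 0 h, were also run.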

Additional observations from a re-analysis of the deposited data

Results flagged for a closer look

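The change over 6 shared times differed between the 2iL and the 2i course for 5 of the 6 tested germline genes, by a joint test of the difference (edgeR, quasi-likelihood). The adjusted p was 4.4e-10 for Tex19.1, 1.5e-06 for Sycp3, 1.7e-06 for Tfap2c, 0.0024 for Dazl and 0.003 for Prdm1. For Tex19.1 the 2i course fell earlier, for Sycp3 it turned down after 60 h, and for Tfap2c it fell further by 24 h and stood higher at 72 h. Dazl began lower in 2i and rose, and Prdm1 was at 3 counts at 48 h of the 2i course against 61 in the 2iL course. The courses started from different levels of Dazl and the Dnmt3 transcripts, and the 2iL course has 1 library at 36 h.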

How the results depend on the processing

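No called value changed sign. Of the alternative values for the 6 tested members, 3057 kept their sign and side of the threshold, 57 stayed uncalled with the other sign, 119 lost the call and 36 gained it. For 2i against 2iL at 0 h, members called went from 2 to 1 in DESeq2, to 1 with the replicate block, to 4 in a fit of the compared libraries alone, and to between 1 and 1 with 1 library left out. Genes called there went from 1004 to 1663 without the 4 libraries that stand apart, to 1984 in the fit of the compared libraries alone, and to 521 to 642 with 1 library left out. At 24 h of the 2iL course, genes called went from 1452 to 2423 and 911 under the same 2 settings, and with 1 library left out to 724 to 971, with 3 to 5 of the members called. At 12 h of the 2i course the fit of the course alone called 2222 against 1356 genes. With 1 library left out, genes called were 609 to 874 at 12 h, 1270 to 1411 at 24 h (2175 with all), 2137 to 2972 at 72 h (3545) and 2618 to 3523 at 84 h (4171).

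Replicate numbers showed no pairing common to all groups: deviations from group means correlated between groups from -0.592 to 0.651 (median 0.0094 over all pairs of groups). With values of both signs, this does not settle whether some groups were paired. The replicate block ended the Prdm1 calls at 0 h (adjusted p = 0.0518) and at 36 h of the 2i course (0.0518) and no other call on a member. A fit of 1 course alone cannot compare the courses, and both courses together are the main fit. The libraries of a single later time were not fitted alone, so that check is missing between courses. A filter that leaves out the lone 2iL 36 h library was chosen after seeing the data. Depth limits Mael, Slc25a31, Tex101 and Asz1. Without the low count filter Mael was called at 72 h of the 2iL course (adjusted p = 0.0466) and 48 h of the 2i course (0.0291), Slc25a31 at 24 h of the 2i course (0.0407) and Tex101 in the joint test of the 2i course (0.0408), and Asz1 in no comparison. Falls to no count are given as lower bounds.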
